A study of Homo sapiens with 12 samples.

Results

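The joint effect of the ETS factor EHF and the caudal homeobox factor CDX1 on chromatin accessibility was examined region by region, as the departure of the double line from the sum of the single lines. Accessibility was measured by ATAC-seq, in which a transposase inserts sequencing adapters into open DNA, in derivatives of HCT116, a widely used cell line from a human colorectal carcinoma. Cells stably carried an empty vector (EV), EHF, CDX1 or both (EHF+CDX1), with 3 libraries per line and 12 in all. By the study's methods, EHF came from a plasmid and geneticin-resistant clones were isolated, CDX1 came from a retrovirus and GFP-positive cells were sorted and expanded, and the double line was made by transfecting CDX1 cells with the EHF plasmid and selecting resistant clones. An effect of carrying both factors and a difference between selected clones therefore cannot be told apart in these lines. Nothing in the labels states that the libraries of a line came from separate cultures, so p-values measure the spread between these libraries, which may be technical.

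All regions on chromosomes 1 to 22 were taken, except those over the exons of EHF and CDX1 themselves, where reads of the introduced copies pile up. This gave 29449 of the 30170 regions in the count table, and 29434 of them were tested. The measure is the interaction, the log2 level in EHF+CDX1 minus that in EHF minus that in CDX1 plus that in EV. It is 0 where the log2 changes of the single lines against EV add up to the change of the double line, positive where the double line lies above that sum and negative where it lies below. The set is defined by position alone, and regions under 3 CPM (read counts relative to the library total, before scaling) in every library were not tested.

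EHF binds DNA through an ETS domain at purine-rich sites around a GGAA core and is an epithelium-specific member of its family. CDX1 binds AT-rich sites through a homeodomain and is known for specifying intestinal identity. Both are active in the differentiated colonic epithelium, and where accessible DNA depends on more than one bound factor, the response to a pair need not be the sum of the responses to each.

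Library totals ran from 567366 to 2443334 counts. The library sizes after scaling ran from 665167 to 2460911 in 11 libraries and reached 4430128 in EHF+CDX1 replicate 2, which stood apart from the rest. The labels were checked at the introduced genes, where lines given EHF held 91907 to 1536042 counts over its exons against 30 to 100 in the lines without it, and lines given CDX1 held 77147 to 1916479 over its exons against 18 to 104. Of the 7 epithelial marker genes looked up, EPCAM, KRT8, KRT18, KRT19, CLDN4 and CLDN7 had regions within 1 kb of a start site and CDH1 had none. Among markers of other cells, PTPRC, CD3E, PECAM1 and ALB had no such region, while COL1A1 and COL1A2 did, with 6 to 33 and 1 to 21 counts per library.

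The sequences of 6 regions that carry the results are printed first (hg38, plus strand, as the deposited intervals give them). The first is the positive region of smallest p-value, the next 3 are positive regions that hold a CDX core and lie in a protein-coding gene or also hold an ETS core, and the last pair are the negative regions that followed the chromosome 21 region by p-value. Capitals mark CDX cores (TTTATG or TTTATT) and ETS cores (AGGAAGT or CGGAAGT), searched on both strands.
EYS intron, chr6:64301678-64301828: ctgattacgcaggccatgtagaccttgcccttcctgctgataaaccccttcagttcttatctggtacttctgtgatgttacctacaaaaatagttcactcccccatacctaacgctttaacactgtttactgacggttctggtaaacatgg
near LINC00355, chr13:64078205-64078369: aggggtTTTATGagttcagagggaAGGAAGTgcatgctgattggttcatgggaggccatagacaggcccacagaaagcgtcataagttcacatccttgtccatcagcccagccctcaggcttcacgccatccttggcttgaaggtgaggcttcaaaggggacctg
GRM3 intron, chr7:86846906-86847056: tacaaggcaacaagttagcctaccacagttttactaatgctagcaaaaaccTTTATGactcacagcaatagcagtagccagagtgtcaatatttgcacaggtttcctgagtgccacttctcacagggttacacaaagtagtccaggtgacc
intergenic, chr13:80235299-80235449: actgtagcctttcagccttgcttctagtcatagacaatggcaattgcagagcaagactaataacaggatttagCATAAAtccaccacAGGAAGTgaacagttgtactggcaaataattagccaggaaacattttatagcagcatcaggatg
ADAM19 start, chr5:157575796-157575949: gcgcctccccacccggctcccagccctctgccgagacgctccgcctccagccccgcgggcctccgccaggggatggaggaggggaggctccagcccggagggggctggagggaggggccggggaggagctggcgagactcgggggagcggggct
LINC00461 intron, chr5:88660962-88661205: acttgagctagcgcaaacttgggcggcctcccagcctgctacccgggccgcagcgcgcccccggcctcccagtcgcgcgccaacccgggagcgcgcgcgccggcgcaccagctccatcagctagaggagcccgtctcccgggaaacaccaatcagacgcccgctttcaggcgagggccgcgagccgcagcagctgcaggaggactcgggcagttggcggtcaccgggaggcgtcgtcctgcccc
The motif letters are a description of these windows and do not show that either factor was bound.

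Of the autosomal regions, 27 departed from additivity at an adjusted p-value under 0.05 (edgeR's quasi-likelihood test with Benjamini-Hochberg adjustment over all 30154 tested regions), 21 with a positive and 6 with a negative interaction. Over the whole table, sex chromosomes included, 0.0696% of regions were called positive and 0.0531% negative. At an unadjusted p-value under 0.05, 1807 autosomal regions were positive (6.14%) and 1096 negative (3.72%). A region could pass the filter through the line in which it was high, so this balance is a description. The median interaction of all autosomal regions was 0.06 on the log2 scale, with quartiles of -0.60 and 0.91, and its median standard error was 0.89, so that only large departures could be resolved in a single region. With library totals alone in place of TMM scaling the median moved to 1.29 and the calls were 33 positive and 0 negative, so directions are given relative to the TMM-scaled median. Library totals include the reads over the introduced exons. At CDX1 these were 77147 to 1916479 counts in lines given it and 18 to 104 in the others.

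The count of 27 rested on few libraries. Leaving out EHF+CDX1 replicate 2 reduced it to 1, leaving out EV replicate 3 reduced it to 4, and leaving out EHF+CDX1 replicate 3 raised it to 57. It lay between 9 and 15 without EV replicate 1, EHF replicate 1 or 2, or any 1 of the CDX1 replicates. The interaction of each of the 27 regions kept its sign when any 1 library was left out, but the regions were selected on these libraries.

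The positive departures shared 1 pattern, which describes the values by which these regions were called and is no support for the calls. In 20 of the 21 regions the mean level in EHF and in CDX1 cells lay below that in EV cells, and in all 21 the mean level in EHF+CDX1 cells was the highest of the 4 lines. Over the 21 regions the median of the mean levels was 8.62 CPM (from here on relative to the TMM-scaled library size) in EHF+CDX1 against 2.06 in EV, 0.305 in EHF and 0.161 in CDX1. Every 1 of the 21 had at least 1 line with no library above 3 counts, and in 11 this held for EV, EHF and CDX1 alike. Because a fitted size then depends on the prior count, counts are given in place of log2 values. In the 9 libraries of the other lines these regions held 0 to 11 counts. In EHF+CDX1 replicates 1, 2 and 3 they held 2 to 56, 35 to 133 and 1 to 21 counts, with medians of 10, 55 and 6. The double line's 3 libraries all lay above the other 9 in 13 of the 21 regions, against 5.33% of all autosomal regions. The highest CPM of the 12 libraries belonged to EHF+CDX1 replicate 2 in 17 of the 21 and in 20.6% of all autosomal regions. None of the 21 was still called without that library. The heat map of called regions shows the levels in every library.

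**Figure D1:**
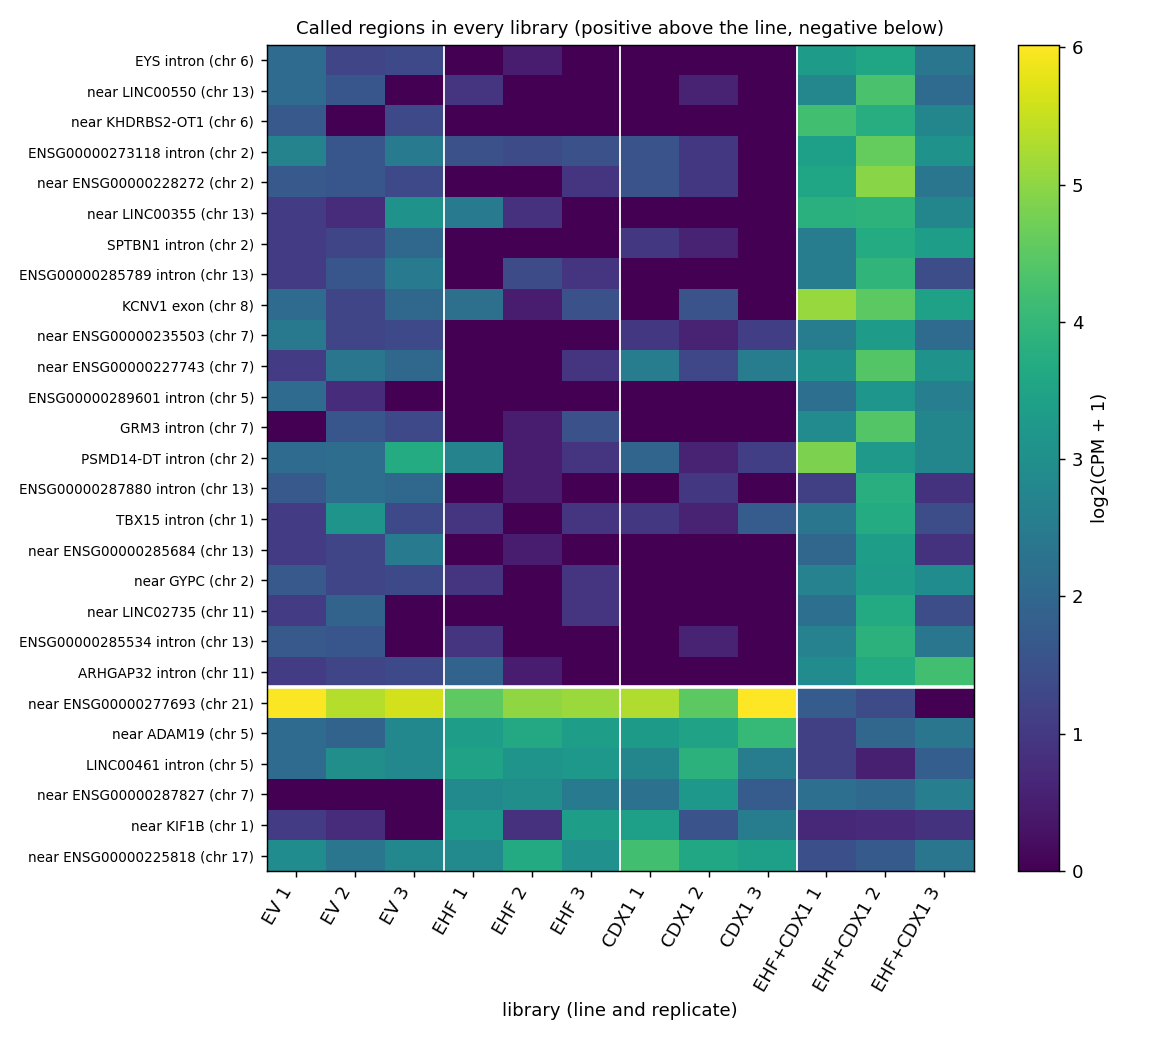
Level of each of the 27 called regions (rows, named by host or nearest gene) in each of the 12 libraries (columns), as log2(CPM + 1) with TMM scaling. In the 21 positive regions the EHF+CDX1 mean is the highest of the 4 lines and its replicate 2 is the highest library in 17, and in the 6 negative regions the EHF+CDX1 mean is below both single-line means.

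The smallest p-value among positive regions fell in an intron of EYS, a gene encoding an extracellular protein of photoreceptors. EV replicates 1, 2 and 3 held 3, 2 and 1 counts, EHF held 0, 1 and 0, CDX1 held 0, 0 and 0, and EHF+CDX1 held 15, 48 and 5 (adjusted p = 0.0049). All 3 libraries of the double line were above the other 9, and its mean of 7.96 ± 3.44 CPM (SD, n = 3 libraries) was at least 3.03-fold higher than CDX1, taken at a floor of 3 counts per library.

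A second region lay between genes on chromosome 13, from 69018322 to 69018472, 133 kb from the nearest start site, that of the long noncoding RNA gene LINC00550. It held 3, 3 and 0 counts in EV, 1, 0 and 0 in EHF, 0, 1 and 0 in CDX1 and 10, 82 and 4 in EHF+CDX1 (adjusted p = 0.012). A region on chromosome 6 from 61322946 to 61323119, 357.9 kb from the start of KHDRBS2-OT1, held 2, 0 and 1 counts in EV, 0 in every EHF and CDX1 library, and 29, 55 and 7 in EHF+CDX1 (adjusted p = 0.012). Its mean of 11.8 ± 5.72 CPM in the double line was at least 5.29-fold higher than EHF and at least 4.50-fold higher than CDX1 at the floor. In both regions the 3 double-line libraries were above all others, and at the first of them most of the double line's counts came from replicate 2.

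On chromosome 2 a region from 212905746 to 212905896, in an intron of the unnamed noncoding gene ENSG00000273118, held 5, 3 and 3 counts in EV, 2, 4 and 2 in EHF, 2, 2 and 0 in CDX1 and 16, 102 and 9 in EHF+CDX1 (adjusted p = 0.013). Means were 13.3 ± 8.45 CPM in EHF+CDX1 against 4.02 ± 1.76 in EV, 1.76 ± 0.12 in EHF and 0.963 ± 0.962 in CDX1. Another on the same chromosome, from 84104225 to 84104393, lay 210.7 kb from a start site and held 2, 3 and 1 counts in EV, 0, 0 and 1 in EHF, 2, 2 and 0 in CDX1 and 18, 133 and 5 in EHF+CDX1 (adjusted p = 0.014). Both regions had all double-line libraries above the other 9, and replicate 2 held the most counts in both. The region near LINC00355 printed above, 2.2 kb from its start, held 1, 1 and 5 counts in EV, 5, 2 and 0 in EHF, 0 in each CDX1 library and 22, 61 and 7 in EHF+CDX1 (adjusted p = 0.018). Here the highest EV library overlapped the lowest double-line library in CPM.

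The other 15 positive regions had adjusted p-values of 0.019 to 0.048. Those in protein-coding genes lay in introns of SPTBN1, which encodes a beta-spectrin of the membrane skeleton, GRM3, which encodes a metabotropic glutamate receptor, TBX15, a T-box transcription factor gene, and ARHGAP32, which encodes a GTPase-activating protein, and over the start of KCNV1, which encodes a modifier subunit of voltage-gated potassium channels. The KCNV1 region had the highest mean level of the 21 in the double line, with 56, 96 and 12 counts (21.6 ± 11.6 CPM) against 3, 2 and 2 in EV, 4, 1 and 2 in EHF and 0, 4 and 0 in CDX1 (adjusted p = 0.035). The ARHGAP32 region held 11, 52 and 21 counts in EHF+CDX1 and 0 to 3 in the other 9 libraries (adjusted p = 0.048), and was the 1 region of these 5 in which replicate 3 had the highest CPM. The SPTBN1 region held 8, 53 and 11 counts in EHF+CDX1 and 0 to 2 elsewhere (adjusted p = 0.019). At TBX15 an EV library with 11 counts overlapped the double line, which held 7, 53 and 2 (adjusted p = 0.044).

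The remaining positive regions lay between genes or in noncoding genes, nearest to or within GYPC, LINC02735, PSMD14-DT and 7 genes with identifiers only. Chromosome 13 held 6 of the 21 positive regions and 4.26% of all autosomal regions. Chromosome 2 held 5 of the 21, and 3104 of the 29255 autosomal regions without a mitochondrial match. A called region on chromosome 5, from 31161863 to 31162013, lay 31.7 kb from the start of the cadherin gene CDH6 and held 6, 35 and 6 counts in EHF+CDX1, 3, 1 and 0 in EV and 0 in all 6 single-line libraries (adjusted p = 0.041).

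In the 6 negative regions the double line lay below the sum of the single lines. Its mean level was the lowest of the 4 lines in 4 of them, and in 5 of the 6 both single lines had a higher mean than EV. The double line's 3 libraries were all below the other 9 in 2 of the 6, against 1.21% of all autosomal regions. As in the positive regions, the calls were made on these same values. In none of the 6 did EHF+CDX1 replicate 2 have the highest CPM. For 3 of them every line had a library above 3 counts, so that sizes can be given. The plot of 4 negative regions by line shows the values.

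**Figure D2:**
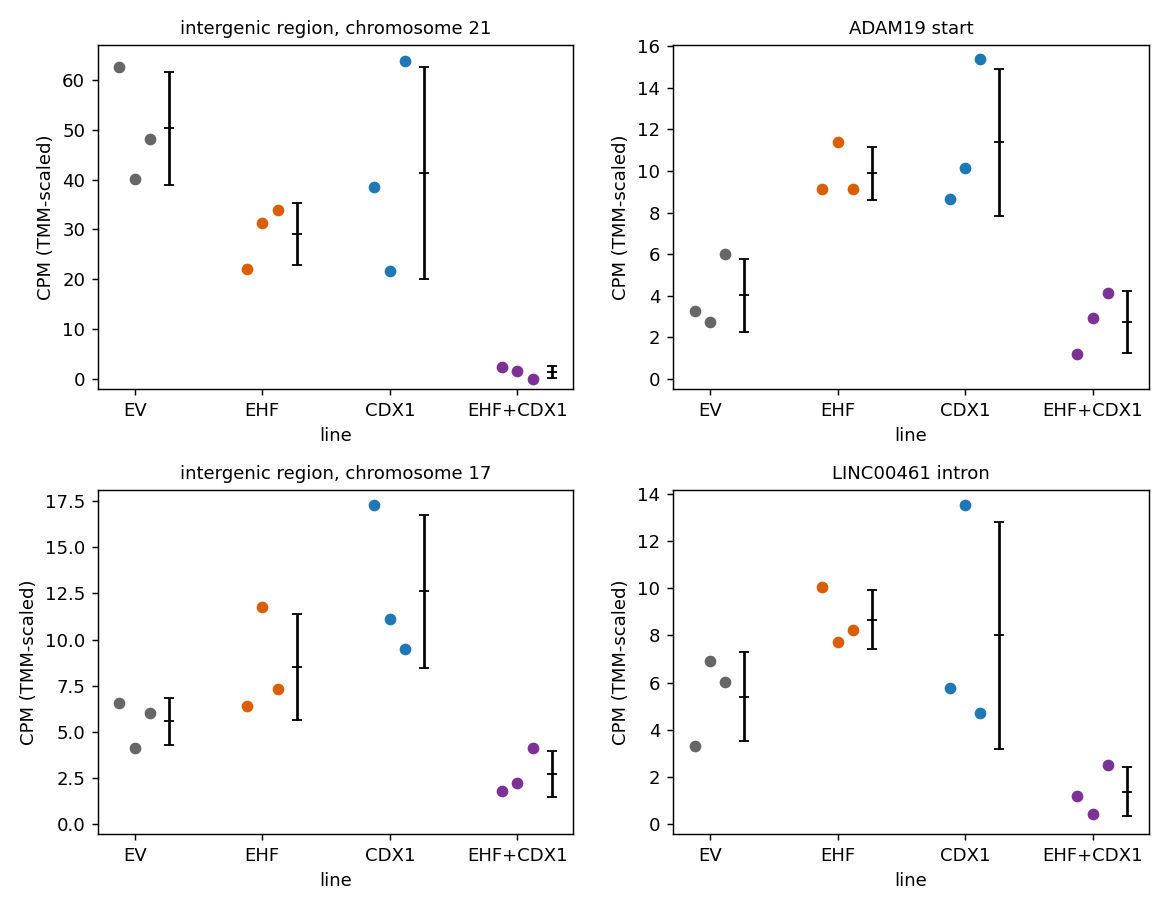
TMM-scaled CPM (vertical axis) of 4 negative regions in the 3 libraries of each line (points, replicates 1 to 3 from left to right), with the mean and SD beside them. The EHF+CDX1 points lie below all 9 others at the chromosome 21 region and at LINC00461, and below every EHF and CDX1 point at ADAM19 and at the chromosome 17 region.

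The largest of these was the intergenic region on the short arm of chromosome 21. EV held 57, 58 and 32 counts, EHF 24, 77 and 37, CDX1 40, 45 and 54, and EHF+CDX1 4, 7 and 0. CDX1 overlapped EV in CPM, the EHF libraries lay below the EV libraries, and each double-line library was below all 9 others. Means were 1.32 ± 1.21 CPM in EHF+CDX1 against 50.2 ± 11.4 in EV, 29.02 ± 6.25 in EHF and 41.3 ± 21.2 in CDX1. The sum of the single-line changes on the log2 scale corresponds to 23.9 CPM. The interaction was -3.92 ± 0.63 (SE, adjusted p = 3.4e-05), and it was the 1 autosomal call left without EHF+CDX1 replicate 2. Reads of the short arms of the acrocentric chromosomes are shared by near-identical copies, so the place of this region in the genome is uncertain.

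The region 21 bp from the start of ADAM19, which encodes a membrane-anchored metalloprotease, had an interaction of -3.42 ± 0.75 (SE, adjusted p = 0.019). EV held 3, 4 and 4 counts, EHF 10, 28 and 10, CDX1 9, 21 and 13, and EHF+CDX1 2, 13 and 5. Every EHF and CDX1 library was above every EV and EHF+CDX1 library in CPM, which overlapped each other. Means were 2.76 ± 1.49 CPM in EHF+CDX1 against 4.02 ± 1.74 in EV, 9.89 ± 1.29 in EHF and 11.4 ± 3.53 in CDX1, and the additive expectation for EHF+CDX1 was 28.0 CPM. Against EV, the single lines had log2 values of 1.41 (EHF, adjusted p = 0.89) and 1.56 (CDX1, adjusted p = 1), and neither passed the test. The call at ADAM19 was kept under 13 of 26 alternative settings and was lost under library totals, voom, DESeq2 and the deposited log2 CPM, without each replicate number in turn, and without 6 of the 12 single libraries.

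An intergenic region on chromosome 17 from 71473296 to 71473461 was the third with a size, -2.99 ± 0.73 (SE, adjusted p = 0.049). Counts were 6, 6 and 4 in EV, 7, 29 and 8 in EHF, 18, 23 and 8 in CDX1 and 3, 10 and 5 in EHF+CDX1, and the double line was below every single-line library in CPM. The means in the same order were 5.58 ± 1.28, 8.50 ± 2.88, 12.6 ± 4.14 and 2.73 ± 1.25 CPM. This call was the weakest of the 27 and was kept under 3 of 26 alternative settings.

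The intronic LINC00461 region, 1.1 kb from the start of this long noncoding RNA gene, held 3, 10 and 4 counts in EV, 11, 19 and 9 in EHF, 6, 28 and 4 in CDX1 and 2, 2 and 3 in EHF+CDX1 (adjusted p = 0.035), and all double-line libraries were below the other 9. The region 551 bp from a start of KIF1B, a kinesin motor gene, held 1, 1 and 0 counts in EV, 9, 2 and 10 in EHF, 10, 4 and 4 in CDX1 and 1, 3 and 1 in EHF+CDX1 (adjusted p = 0.045). An intergenic region on chromosome 7 from 119176106 to 119176261 differed in form from the rest, with 0 counts in every EV library, 7, 17 and 5 in EHF, 4, 17 and 2 in CDX1 and 6, 14 and 6 in EHF+CDX1 (adjusted p = 0.041). There the double line overlapped both single lines (a mean of 3.90 ± 0.96 CPM against 5.96 ± 1.23 in EHF and 4.80 ± 3.03 in CDX1), and each of the 3 lines lay above EV.

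In none of the 27 regions did EHF or CDX1 alone differ from EV at an adjusted p-value under 0.05, and the smallest such value was 0.072, for EHF at the chromosome 7 region from 119176106. These comparisons share the EV libraries with the interaction. On the linear CPM scale, where the changes themselves rather than their logarithms are summed, the departure kept its sign in all 21 positive and all 6 negative regions, without a test. In most of them the order of the line means given above already fixes this sign, so it is no separate check.

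Just beyond the threshold, the 5 uncalled regions of smallest p-value had adjusted p-values of 0.054 to 0.067. Those at the starts of ZNF529, a zinc finger gene, and 106.7 kb from LINC00333 had the form of the positive calls, with 10, 40 and 5 and with 6, 31 and 1 counts in EHF+CDX1 against 0 in all single-line libraries. The other 3 were negative. The region at the start of NDRG4 had means of 2.30 ± 0.24 CPM in EHF+CDX1 against 2.11 ± 2.47 in EV, 6.64 ± 1.99 in EHF and 9.19 ± 3.30 in CDX1 (interaction -3.46 ± 0.86 SE, adjusted p = 0.062). That at the start of ZDHHC4, which encodes a protein palmitoyltransferase, had 3.98 ± 1.32, 8.43 ± 3.40, 10.6 ± 2.63 and 3.15 ± 2.07 CPM in EV, EHF, CDX1 and EHF+CDX1 (-3.14 ± 0.78, adjusted p = 0.067). An intergenic chromosome 17 region from 68774349 had 7.27 ± 1.52, 16.4 ± 3.18, 13.5 ± 0.49 and 6.09 ± 1.51 CPM in that order (-2.43 ± 0.61, adjusted p = 0.067). In these 3 the single lines were higher than EV in mean and the double line was near EV.

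Regions were then split by depth. Of 29434 regions, 21031 had a library above 3 counts in every line. Among these, 435 had an unadjusted p-value under 0.05 with a positive and 863 with a negative interaction. Among the 8403 regions with some line at 3 counts or fewer, the numbers were 1372 and 233. EV, EHF and CDX1 were all at 3 counts or fewer in 3656 tested regions, and EHF+CDX1 was in 146. Since 3 CPM in only 1 library was needed, a region could enter through the line in which it was high. The split of directions is therefore a description. The plot of the double line against the summed single lines shows the better covered regions.

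**Figure D3:**
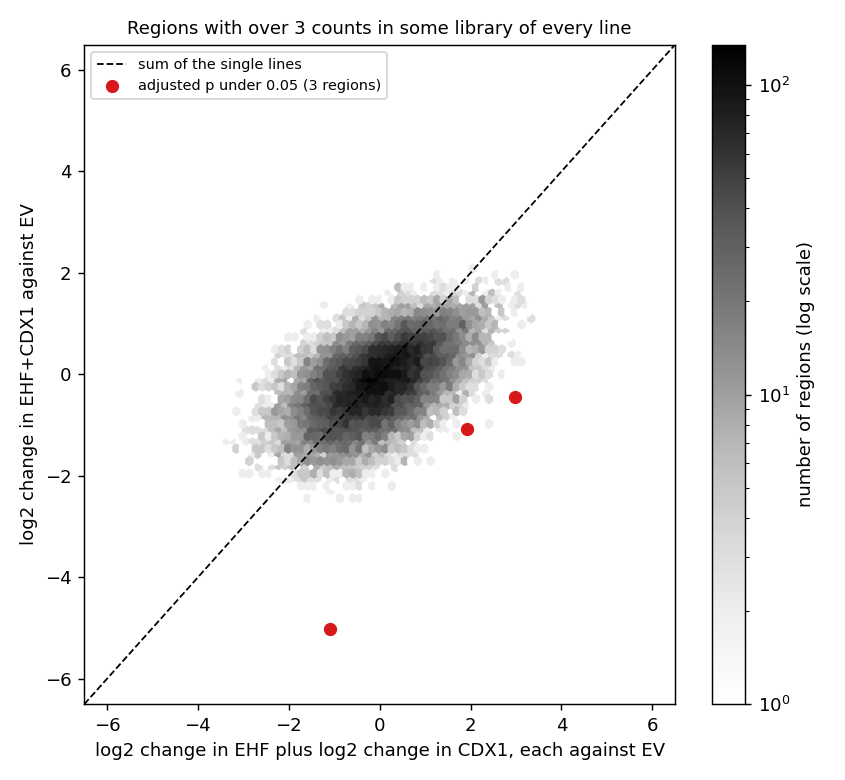
Log2 change of EHF+CDX1 against EV (vertical) over the sum of the log2 changes of EHF and of CDX1 against EV (horizontal), for the 21031 autosomal regions with a library above 3 counts in every line. Shading gives the number of regions, the dashed line is additivity, and the 3 called regions (red) lie below it. Both axes share the EV libraries.

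Among the covered regions with a positive interaction, the 3 of smallest p-value, chosen after their values were seen, lay in an intron of RNF144A, which encodes a ubiquitin ligase, in an exon of LINC01504 (3.50 ± 0.90 SE, adjusted p = 0.079) and at the start of LMO7. The RNF144A region held 7, 22 and 7 counts in EV, 8, 13 and 4 in EHF, 7, 8 and 4 in CDX1 and 26, 74 and 13 in EHF+CDX1 (2.64 ± 0.66 SE, adjusted p = 0.067). The LMO7 region held 4, 5 and 4, then 1, 5 and 1, then 1, 10 and 1, and 17, 75 and 8 counts in the same order (3.58 ± 0.93 SE, adjusted p = 0.081), with every double-line library above the other 9. None of the 3 passed the test.

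The positions of positive and negative departures are described without a test, since a region needed 3 CPM in only 1 library and could enter through the line in which it was high. Of the 21 called positive regions 11 were intronic, 9 intergenic and 1 exonic, and 2 lay within 1 kb of a start site. Among all 1807 positive regions with an unadjusted p-value under 0.05, 22.03% lay within 1 kb of a start, against 42.8% of the 1096 negative ones and 45.0% of all autosomal regions. Their median distance to a start was 17.7 kb, against 2.96 kb and 2.79 kb. Median GC content was 48.3% in the positive, 55.3% in the negative and 56.3% in all regions. A CDX core was found in 26.3% of the positive and 13.05% of the negative regions and in 15.5% of all, and an ETS core in 8.80%, 10.5% and 10.4%. Of the called regions, 6 of 21 positive ones held a CDX core and 2 an ETS core, and none of the 6 negative ones held either. The CDX core consists mostly of A and T, and the part of base composition in its share was not tested.

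The median interaction was also read by distance from gene starts and by GC content, as a description of the regions that passed this filter. It was -0.07 within 1 kb of a start, 0.36 at 50 to 100 kb and 0.76 beyond 100 kb, and 0.78 in regions under 40% GC against -0.06 at 60% and over. Without EHF+CDX1 replicate 2 these medians were -0.04, -0.04 and 0.50 by distance and 0.50 and -0.01 by GC content. The medians with and without that library are over different regions, as 29255 passed the filter with it and 27081 without it, 2433 and 1981 of them beyond 100 kb and 2025 and 1570 under 40% GC. Without that library the median at 50 to 100 kb was thus no higher than near starts, while those beyond 100 kb and under 40% GC were lower than with it but still above 0. Replicate 2 of the double line had the highest CPM of the 12 libraries in 30.1% of regions over 1 kb from a start and in 9.03% of those nearer, where an equal share for every library is 8.33%. In the most distant regions the single lines themselves lay lower than EV, with medians of -0.35 for EHF and -0.23 for CDX1, and the double line lay higher, at 0.49.

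**Figure D4:**
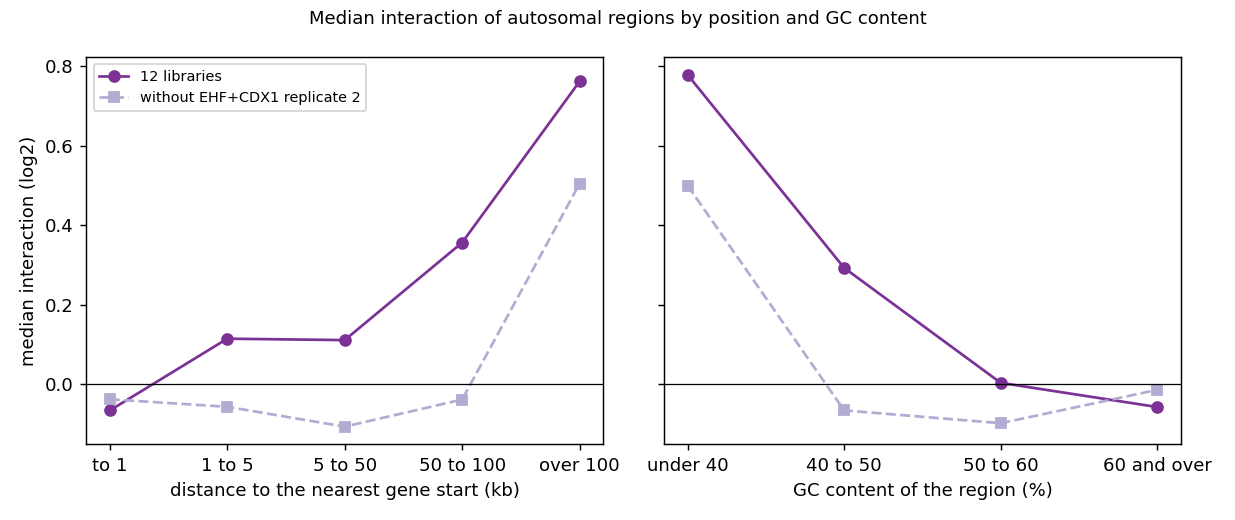
Median interaction (log2, vertical) of autosomal regions by distance to the nearest gene start (left) and by GC content (right), with all 12 libraries (circles) and without EHF+CDX1 replicate 2 (squares), each over the regions that passed the filter in those libraries. With 12 libraries the median climbs to 0.76 beyond 100 kb and 0.78 under 40% GC, and without that library to 0.50 in both.

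The level of the double line also differed over whole chromosomes. To limit the influence of distal regions, the share of counts on each autosome was computed over the 13233 regions within 1 kb of a start, mitochondrial matches left out. On 11 of the 22 autosomes the 3 double-line libraries lay outside the range of the other 9, 7 above and 4 below. In an exact permutation test of the double line against the other 9 libraries, over all choices of 3 of 12 (two-sided, smallest possible p = 0.0045), 16 autosomes had an adjusted p-value under 0.05 over the 22, 9 higher and 7 lower. Without replicate 2 of the double line 10 did, and 20 kept their direction. The same test of the interaction itself gave 5 autosomes with an unadjusted p under 0.05 and none after adjustment (smallest adjusted p = 0.095, exact permutation test over 924 splits). Its smallest possible p was 0.0022. A single autosome could pass the adjustment over the 22 only at that value, so the absence of passes is no result about additivity. The shares are parts of a whole, so a gain on some chromosomes lowers the rest.

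The largest decrease of the double line against the other 9 libraries was on chromosome 10. Its share was 4.76%, 5.04% and 4.88% in EV, 4.65%, 4.86% and 4.50% in EHF, 4.75%, 4.92% and 4.83% in CDX1, and 3.55%, 3.16% and 3.82% in EHF+CDX1 (log2 difference -0.45, exact permutation test, p = 0.0045, adjusted p = 0.011). The 3 other lines overlapped each other, and the double line lay apart in every library. On chromosome 16 the share was 3.43% to 3.72% in the other 9 libraries and 2.36% to 2.998% in the double line (-0.39), and on chromosome 1 it was 9.64% to 10.01% against 8.41% to 8.70% (-0.20). With all 12 libraries the largest increase was on chromosome 13, with 2.27% to 2.51% against 2.75% to 3.99% (0.36). It was 0.18 without replicate 2, whose share was the 3.99%, and then lower than on chromosomes 20 (0.24), 7 (0.20) and 11 (0.20). Chromosome 7 held 5.35% to 6.19% against 6.49% to 7.23% (0.24), and chromosome 20 held 1.80% to 2.06% against 2.19% to 2.404% (0.25). Chromosomes 1, 7, 13, 16 and 20 had the same p-value as chromosome 10. Chromosome 11, where the double line overlapped the other 9 libraries, had p = 0.0091 in the same exact permutation test (adjusted p = 0.018). These p-values do not test additivity. In the exact permutation test of the interaction the unadjusted p was 0.16 on chromosome 10, 0.11 on 16 and 0.024 on 1. It was 0.048 on chromosome 13, 0.063 on 7, 0.25 on 20 and 0.1 on 11. The smallest, 0.0043, was on chromosome 9 (log2 interaction 0.21, adjusted p = 0.095).

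**Figure D5:**
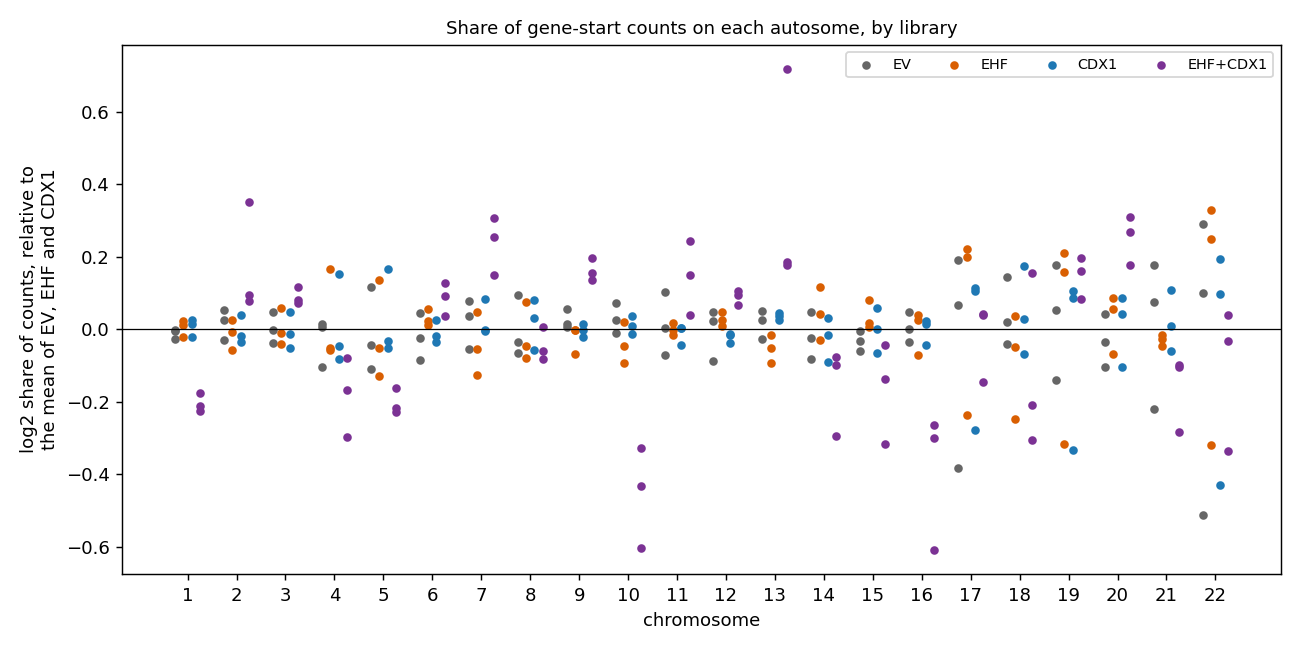
Share of gene-start counts on each autosome in each library (points), as the log2 ratio to the mean of the 9 EV, EHF and CDX1 libraries. The EHF+CDX1 points (purple) lie apart from all others on 11 autosomes, among them 1, 10 and 16 (below) and 7, 13 and 20 (above).

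Within some chromosomes the departures changed sign between segments. The median was negative in every window of chromosomes 4, 5, 10, 14, 15, 16, 18 and 21, though as small as -0.005 at 0 to 20 Mb of chromosome 21. Without replicate 2 of the double line the median was 0.03 at 40 to 60 Mb of chromosome 4. It was then 0.05 at 180 to 200 Mb of chromosome 5 and 0.08 at 100 to 120 Mb of chromosome 14. On chromosome 13 it was positive in every window, but without replicate 2 of the double line it was -0.006 at 80 to 100 Mb. In windows of 20 Mb holding at least 20 gene-start regions, the median interaction ran from -0.81 to 0.83 over 147 windows, and the double line's share lay above the other 9 libraries in 22 windows and below them in 21. On chromosome 9 the window from 0 to 20 Mb had a median of -0.65 (67 regions) and that from 120 to 140 Mb one of 0.34 (200 regions). On chromosome 3 the window from 20 to 40 Mb had -0.48 (82 regions) and that from 100 to 120 Mb had 0.46 (94 regions). The lowest was at 80 to 100 Mb of chromosome 16 (-0.81, 76 regions), and the highest at 60 to 80 Mb of chromosome 20 (0.83, 35 regions). Without replicate 2 of the double line these 6 medians were -0.69, 0.44, -0.49, 0.40, -0.65 and 0.97. In the same 6 windows the medians of EHF against EV were -0.02 to 0.17 and those of CDX1 against EV -0.17 to 0.17. A gain or loss of chromosome segments in the double line and a response to the factors cannot be told apart from these counts. With scaling computed within each chromosome, chosen after seeing the data, 17 autosomal regions were called, all among the 27.

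Genes with several departing regions were listed next. At least 3 regions with an unadjusted p-value under 0.05 in 1 direction were found in or nearest to 55 genes for positive and 7 genes for negative interactions, and no gene was in both groups. At this threshold 6.14% of all autosomal regions were positive and 3.72% negative, and genes with many tested regions reach 3 more easily. No share over all genes is given, so these counts are no result about clustering at genes. The largest positive cluster, nearest to CWH43 on chromosome 4, held 17 of 68 tested regions between 49093700 and 49654943. Summed over the 17, the level was 427.6 ± 201.5 CPM in EHF+CDX1 against 489.8 ± 150.6 in EV, 261.6 ± 125.8 in EHF and 313.8 ± 126.1 in CDX1, so that the double line overlapped EV and the single lines had lower means. This segment borders the centromere, where repeats exist in near-identical copies, so the assignment of its reads is uncertain. All other positive clusters of at least 5 regions also lie near centromeres or the repeat blocks beside them, with the same uncertainty. They are nearest to ENSG00000285780 on chromosome 3 (10 of 41 regions), LINC02799 on chromosome 1 (9 of 39) and TPTE on chromosome 21 (6 of 14). The rest are nearest to DEFB115 on chromosome 20 (5 of 11), ENSG00000203496 on chromosome 10 (5 of 29) and ENSG00000290846 on chromosome 2 (5 of 9). In all 55 genes both single lines had a lower summed mean than EV, and in 46 the double line had a higher one than EV.

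Among smaller positive clusters in or nearest to named protein-coding genes, ALDH1A1, which encodes a retinaldehyde dehydrogenase, had 4 of 9 regions, with summed means of 16.9 ± 4.61 CPM in EHF+CDX1 against 10.8 ± 3.81 in EV, 4.37 ± 1.44 in EHF and 4.31 ± 0.443 in CDX1. BAAT, which encodes the enzyme that conjugates bile acids, had all 3 of its tested regions, at 6.31 ± 1.36, 2.24 ± 0.880, 1.75 ± 0.716 and 15.0 ± 4.697 CPM in EV, EHF, CDX1 and EHF+CDX1, the order also of the next genes. On chromosome 13, 3 of the 13 regions nearest to DACH1 were positive, none of these in the gene itself (1.83 ± 1.33, 0.542 ± 0.938, 0.715 ± 0.629 and 21.5 ± 17.4 CPM) and PCDH17 had all 3 (1.83 ± 1.33, 0.847 ± 0.815, 0 and 9.10 ± 8.60 CPM). The double line's counts in replicates 1, 2 and 3 were 29, 180 and 8 at DACH1 and 12, 82 and 2 at PCDH17, so replicate 2 held most of them.

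The negative clusters were LINC00511, PCDH7, CAMK2D, LINC00882, PDE4B and 2 genes with identifiers only. PCDH7, a protocadherin gene, had 4 of 12 regions, with summed means of 6.12 ± 2.82 CPM in EHF+CDX1 against 10.9 ± 5.78 in EV, 19.3 ± 7.26 in EHF and 20.6 ± 8.29 in CDX1. PDE4B, which encodes a cyclic AMP phosphodiesterase, had 3 of 5, at 10.6 ± 5.58, 19.6 ± 9.28, 16.5 ± 7.09 and 8.42 ± 5.13 CPM in EV, EHF, CDX1 and EHF+CDX1. In both the single lines had higher means than EV and the double line a lower one. CAMK2D, which encodes a calmodulin-dependent kinase, had 3 of 7 regions at 7.51 ± 4.91, 21.5 ± 10.4, 15.0 ± 8.71 and 14.3 ± 1.04 CPM in that order, so that there the double line had a higher mean than EV. The members of these clusters were picked by their p-values, so the sums carry no test.

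Lists of genes with roles in the colon or in the study's questions, 13 in all, were then read, over regions within 5 kb of a start site. None of their regions was called for the interaction by edgeR, by voom or by DESeq2. By edgeR, 6 of all 16000 autosomal regions within 5 kb of a start were called. The absence of calls in lists of this size is therefore no result about these genes. Among all autosomal regions within 5 kb of a start, 3.51% were positive and 3.72% negative at an unadjusted p-value under 0.05, and the median was -0.05.

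Genes of colonocytes and the brush border had the highest median in this window, 0.91 over 24 regions of 13 genes and 0.62 without EHF+CDX1 replicate 2, with 2 regions positive and 2 negative at an unadjusted p under 0.05. The region 101 bp from the start of LGALS4, a galectin of the intestinal epithelium, held 1, 0 and 3 counts in EV, 2, 0 and 2 in EHF, 0, 1 and 0 in CDX1 and 15, 44 and 5 in EHF+CDX1 (unadjusted p = 0.0023, adjusted p = 0.21). At PLS1, a fimbrin of microvilli, EHF+CDX1 held 3, 20 and 2 counts (unadjusted p = 0.035, adjusted p = 0.46). A negative region counted for CDHR2, a protocadherin of the brush border, lies over the start of its neighbour RNF44 (-2.03 ± 0.65 SE, adjusted p = 0.20).

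The 12 marker genes of the study were named by its authors, so the list is not independent of these lines. Of these genes 8 had a region within 5 kb of a start, and the median interaction was 0.70 over 17 regions and 0.50 without EHF+CDX1 replicate 2, with 1 region positive and 1 negative at an unadjusted p under 0.05. The 3 GPA33 regions had adjusted p-values of 0.57 to 0.72 and the 2 VIL1 regions 0.56 and 0.74. GPA33 encodes a cell-surface antigen of the intestinal epithelium and VIL1 the microvillus protein villin. The GPA33 region with an interaction of 1.85 ± 1.06 (SE) held 1, 4 and 1 counts in EV, 3, 3 and 5 in EHF, 3, 5 and 1 in CDX1 and 9, 68 and 12 in EHF+CDX1, all double-line libraries above the other 9. At VIL1, 82 bp from the start, counts were 2, 0 and 1 in EV, 0, 1 and 4 in EHF, 2, 0 and 1 in CDX1 and 9, 28 and 0 in EHF+CDX1. Whether the joint effect there departs from the sum was not detectable at this depth. At CDH17, an intestinal cadherin gene, the region over the start held 5, 32 and 9 counts in EHF+CDX1 (adjusted p = 0.89), and one 2.5 kb away was negative (-2.35 ± 0.90 SE, unadjusted p = 0.0097, adjusted p = 0.33), with 0, 10 and 3 counts in EV, 9, 18 and 7 in EHF, 4, 12 and 5 in CDX1 and 3, 11 and 0 in EHF+CDX1. KRT20, a keratin gene of differentiated colonocytes, had no region in this window.

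The transcription factor lists had medians of 0.43 (intestinal endoderm factors, 47 regions), 0.24 (ETS family other than EHF, 31 regions) and 0.09 (AP-1 family, 19 regions), the last 0.23 without EHF+CDX1 replicate 2. A region 4.1 kb from ELF3, an epithelial ETS factor gene, was positive at an unadjusted p = 0.025 (2.59 ± 1.15 SE, adjusted p = 0.42), and in the AP-1 family regions counted for JUNB (1.70 ± 0.75 SE) and FOSB (2.34 ± 1.04 SE) had adjusted p-values of 0.42 and 0.43. In the HOX clusters, which specify position along the body axis, 4 of 20 regions were positive and 1 negative at an unadjusted p under 0.05, with a median of 0.27. That near HOXB9 held 9, 2 and 9 counts in EV, 6, 2 and 4 in EHF, 4, 5 and 4 in CDX1 and 14, 32 and 9 in EHF+CDX1 (2.49 ± 0.87 SE, adjusted p = 0.26), so the double line overlapped EV and the single lines had lower means.

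Epithelial junction and keratin genes had a median of 0.33 over 76 regions and 0.17 without EHF+CDX1 replicate 2, with 4 positive and 2 negative at an unadjusted p under 0.05, among them regions at the claudin genes CLDN3 (1.97 ± 0.99 SE, adjusted p = 0.50) and CLDN4 (2.12 ± 0.89 SE, adjusted p = 0.39). The CLDN4 region held 5, 5 and 1 counts in EV, 4, 6 and 2 in EHF, 7, 4 and 2 in CDX1 and 18, 55 and 11 in EHF+CDX1, with every double-line library above the other 9. At CLDN1 an intronic region was positive and the start negative (-1.83 ± 0.89 SE, adjusted p = 0.48).

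Negative medians were found for fatty acid metabolism (-0.23, 51 regions), mesenchymal genes (-0.15, 21 regions, and -0.26 without EHF+CDX1 replicate 2) and proliferation and replication (-0.08, 62 regions, near the -0.05 of all regions in this window). In the last list 0 regions were positive and 3 negative at an unadjusted p under 0.05, at MYC, MKI67 and PLK1. The MYC region, 25 bp from a start, held 6, 6 and 0 counts in EV, 10, 22 and 8 in EHF, 10, 15 and 14 in CDX1 and 11, 19 and 4 in EHF+CDX1 (-2.26 ± 0.75 SE, unadjusted p = 0.0029, adjusted p = 0.23). At SCD, which encodes a fatty acid desaturase, means were 8.60 ± 0.465 CPM in EHF+CDX1 against 7.45 ± 3.49 in EV, 13.8 ± 3.26 in EHF and 12.2 ± 4.44 in CDX1 (-1.56 ± 0.61 SE, adjusted p = 0.35). Of the mesenchymal genes, regions at FN1, the fibronectin gene (-1.73 ± 0.75 SE), and SNAI2, which encodes a repressor of epithelial genes (-1.32 ± 0.66 SE), had adjusted p-values of 0.41 and 0.49. Both SCD and MKI67 lie on chromosome 10 and PLK1 on chromosome 16, whose gene-start medians were -0.48 and -0.43, and the part of the chromosome-wide shift in these values was not tested.

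The remaining lists were xenobiotic metabolism (median 0.38, 25 regions, 4 positive and 2 negative at an unadjusted p under 0.05), secretory lineage genes (0.40, 8 regions, none in either direction) and intestinal stem cell and Wnt genes (0.07, 19 regions, 1 positive). Without EHF+CDX1 replicate 2 the median was 0.07 for the xenobiotic list, 0.08 for the secretory list and -0.10 for the stem cell list. Over gene bodies and 50 kb around starts the median turned to -0.35 for the stem cell list (48 regions) and to 0.09 for the proliferation list (131 regions, 5 positive and 3 negative at an unadjusted p under 0.05), and it moved to 0.45 for the colonocyte list, 0.64 for the secretory list and 0.16 for the HOX clusters. Set against the median of all autosomal regions, the stem cell list changed sign under RLE scaling and under library totals, and the AP-1 and HOX lists under scaling within chromosomes, while the other 10 kept theirs under these scalings and under quantile normalisation.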

How the data were processed

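ATAC-seq was analysed in 12 libraries of HCT116 derivatives, 3 each of EV, EHF, CDX1 and EHF+CDX1, grouped by the submitters' labels. Per the study's methods the authors aligned the read pairs with Subread (hg38), kept unique mappings, called peaks with HOMER and merged them across libraries. Raw read counts per region from featureCounts were deposited. The versions recorded for these tools were 2.0.0 for Subread and featureCounts and 4.7 for HOMER, which the paper's methods do not state. The authors also deposited log2 CPM values per library, after a filter on low regions, which served only as an alternative because their distributions differed between libraries.

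Counts were scaled by TMM and fitted in 1 model with a term per line by edgeR 4.0.16 (R 4.3.3, quasi-likelihood F-test, robust, two-sided). Regions whose highest CPM was under 3 were left out, and p-values were adjusted by Benjamini-Hochberg over all 30154 tested regions. A group was taken as at the floor when none of its libraries exceeded 3 counts. Such counts are fragments without molecular identifiers, and intervals cover counting and library spread only. Genes came from GENCODE 44 (hg38). Mitochondrial matches of at least 40 bp and 80% identity were found with blastn 2.17.0, and 0 of the 179 tested regions with one were called. Chromosome shares were compared by exact permutation tests. Library pairs with identical counts numbered 0. The fit was tested on simulated counts, with changes placed only in EHF+CDX1 at well covered regions. That test does not cover regions with EV, EHF or CDX1 at the floor, as in every positive call. Alternatives were RLE scaling, library totals, limma-voom 3.58.1 with quantile normalisation, DESeq2 1.42.0, other filters, a replicate block, left-out libraries and, chosen after seeing the data, scaling within chromosomes.

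All called regions were named, with values in every library for the 6 of smallest p-value in each direction, the 5 next uncalled ones, list regions with an unadjusted p-value under 0.05 and genes with at least 3 such regions, of which examples are printed. A region was assigned to the gene whose body holds it, otherwise to the nearest start. The regions and gene lists were chosen with earlier results of these data known. The sequences of some regions and the values of 1 gene are not reported here.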

Additional observations from a re-analysis of the deposited data

Results flagged for a closer look

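The interaction asks whether the difference that goes with one factor is itself different between lines with and without the other, and 27 autosomal regions passed it (edgeR, adjusted p under 0.05). An effect of the factors and a difference between selected clones cannot be told apart in it, and the libraries of a line may be technical. In 3 of the 27 regions every line had a library above 3 counts. Their interactions were -3.92 on the log2 scale at the chromosome 21 region, -3.42 at the start of ADAM19 and -2.99 at the chromosome 17 region. These calls were kept under 23, 13 and 3 of 26 alternatives in that order. With 3 libraries per line no library was tested for standing apart within its line.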

How the results depend on the processing

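The 27 called regions kept the sign of their interaction under each of the 26 alternatives in which they were tested (26 of the 27 were tested without replicate 2 of every line), but the number of calls did not hold. It was 3 with DESeq2 (2 positive, 1 negative), 9 with a CPM of 3 required in at least 2 libraries (7 and 2), 14 without the robust option (10 and 4), 17 with scaling within each chromosome, chosen after seeing the data (14 and 3), and 0 with the deposited log2 CPM (0 and 0), where 3679 regions had an unadjusted p under 0.05. Positive calls numbered 13 under voom with quantile normalisation and 33 under library totals alone, where negative calls numbered 0. Those totals include the reads over the introduced exons. With a library or a replicate number left out the calls ranged from 1 to 57 in all, 0 to 45 positive and 1 to 12 negative. Without EHF+CDX1 replicate 2, 1975 regions had an unadjusted p under 0.05. The cause was not tested.

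The median interaction was 0.21 under RLE scaling, 1.29 under library totals, -0.060 under voom, 0.23 under DESeq2 and 1.37 in the deposited log2 CPM, and -0.045 (without EV replicate 2) to 0.15 with libraries left out. Regions with EHF+CDX1 libraries all above the other 9 libraries numbered 897 under library totals and 1569 with TMM, and those with EHF+CDX1 libraries all below the other 9 libraries numbered 12 and 356. The chromosome 21 call was kept under 23 of 26 alternatives and lost under library totals, the deposited log2 CPM and without replicate 3.

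With a replicate block 116 regions were called, 81 positive and 35 negative, with all 27 among them. Same-numbered libraries correlated at 0.041 to 0.527 in their deviations from the line means, and EHF+CDX1 replicate 3 correlated at 0.041 with EV replicate 3 and at 0.047 with CDX1 replicate 3, so the numbers were not taken as pairing. Each library had its highest correlation with a library of its own number. The sample titles also carry running numbers that go through all lines within each replicate number. No label states whether this marks a shared preparation, so pairing cannot be settled here and the fit without a block ignores it.

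Depth limits these results. Median counts per autosomal region were 2 to 22 per library, a floor of 3 counts equals 0.677 to 4.51 CPM, and the common biological coefficient of variation was 0.335.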
